A study of Homo sapiens with 4 samples.

Results

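MER57 is a family of long terminal repeats (LTRs), and its 10 subfamilies were taken by name, as those starting with MER57, from a deposited table of 373 LTR subfamilies. They are MER57A1, MER57B1, MER57B2, MER57C1, MER57C2, MER57D, MER57E1, MER57E2, MER57E3 and MER57F. The family was chosen by the values of MER57E3 in this same table, its low z-scores of both marks in PBS and its large H3K9me2 difference between treatments. Levels and differences are therefore given as a description, without tests. The values come from native chromatin immunoprecipitation and sequencing (ChIP-seq, here on single nucleosomes without cross-linking) of H3K9me2 and H3K9me3 in HCT116, an established human colorectal carcinoma cell line. Cells had received either PBS, the vehicle, or 300 nM 5-aza-CdR over 24 h, and were collected at 5 days. The 4 groups, PBS and 5-aza-CdR for each of the 2 marks, held 1 library each, so no treatment difference below could be checked against a replicate and no p-value is given.

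LTRs flank endogenous retroviruses, the remains of retroviral insertions into the germ line, and carry the promoter, enhancer and polyadenylation signals of the virus. Recombination between the paired LTRs of a provirus leaves a solitary LTR, the form in which most copies survive. MER57 belongs to the ERV1 class, which is related to gammaretroviruses. H3K9me2 and H3K9me3, the di- and trimethylated forms of lysine 9 on histone H3, mark silent chromatin: the first is laid down mainly by EHMT1 and EHMT2, the second at retroviral repeats mainly by SETDB1, brought there by KRAB zinc finger proteins and TRIM28. DNA methylation of CpG sites is the other main means of LTR silencing, and 5-aza-CdR (decitabine), a cytosine analogue, lowers it by trapping DNA methyltransferases.

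Each value is a z-score per subfamily and library as the authors deposited it, a relative scale that pools all copies of a subfamily and gives no genomic positions, read counts or copy numbers. The sources used here do not give what the z-scores were centred on, and the depth behind them is unknown. Over the 373 subfamilies the median z-score was -0.412 for H3K9me2 and -0.504 for H3K9me3 in PBS, and 0.312 and 0.468 in 5-aza-CdR. The whole set is thus shifted between treatments in the deposited values, and the source of this shift was not tested. MER57 is described by its place relative to that shift. A limit of size was used: a subfamily over 2 robust SDs away from the median of a column counted as beyond it, where the robust SD is the scaled median absolute deviation of that column over all 373 subfamilies.

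MER57E3 was far below its relatives for both marks in PBS-treated cells. Its H3K9me2 z-score was -0.945, the fourth lowest of the 373, and its H3K9me3 z-score was -0.617, the second lowest. The other 9 subfamilies lay from -0.532 at MER57E2 to -0.269 at MER57E1 for H3K9me2, with a median of -0.384 and an SD of 0.075 over subfamilies. For H3K9me3 they lay from -0.553 at MER57E2 to -0.496 at MER57A1, with a median of -0.513 and an SD of 0.0183. MER57E3 did not overlap the other 9 for either mark.

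The H3K9me2 values in PBS, from the lowest to the highest, were -0.945 at MER57E3, -0.532 at MER57E2, -0.436 at MER57A1, -0.431 at MER57C2, -0.406 at MER57D, -0.384 at MER57B2, -0.367 at MER57B1, -0.365 at MER57C1, -0.319 at MER57F and -0.269 at MER57E1. The step from MER57E3 to MER57E2 was 0.413, more than the whole range of the other 9, which was 0.262. Against all LTRs, MER57E3 lay at -2.93 robust SDs from the median, and the other 9 lay between -0.658 and 0.786. MER57E3 was the 1 member of 10 below the limit, which 4.02% of all subfamilies passed on that side. It was chosen for this low value, so nothing is read from that count. With no second library there is no spread by which neighbours in this order, such as MER57B1 and MER57C1, could be told apart.

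The H3K9me3 values in PBS, in the same sense, were -0.617 at MER57E3, -0.553 at MER57E2, -0.532 at MER57C1, -0.521 at MER57C2, -0.514 at MER57D, -0.513 at MER57E1, -0.505 at MER57B2, -0.502 at MER57F, -0.499 at MER57B1 and -0.496 at MER57A1. MER57E2 was again the lowest after MER57E3 and lay at -1.92 robust SDs from the median of all LTRs, just inside the limit. MER57E3 lay at -4.42 robust SDs and was the 1 member of 10 past the limit, against a background of 5.63% on that side. Here too it was chosen for its low value, and nothing is read from the count. The order of the other members differed between the marks: MER57A1 was highest for H3K9me3 and among the lower members for H3K9me2. The Spearman correlation between the marks in PBS was 0.42 over the 10 subfamilies and 0.2 over the 9 without MER57E3, with 0.76 over all 373. The subfamilies of MER57 share descent and libraries, and these correlations are descriptive.

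**Figure D1:**
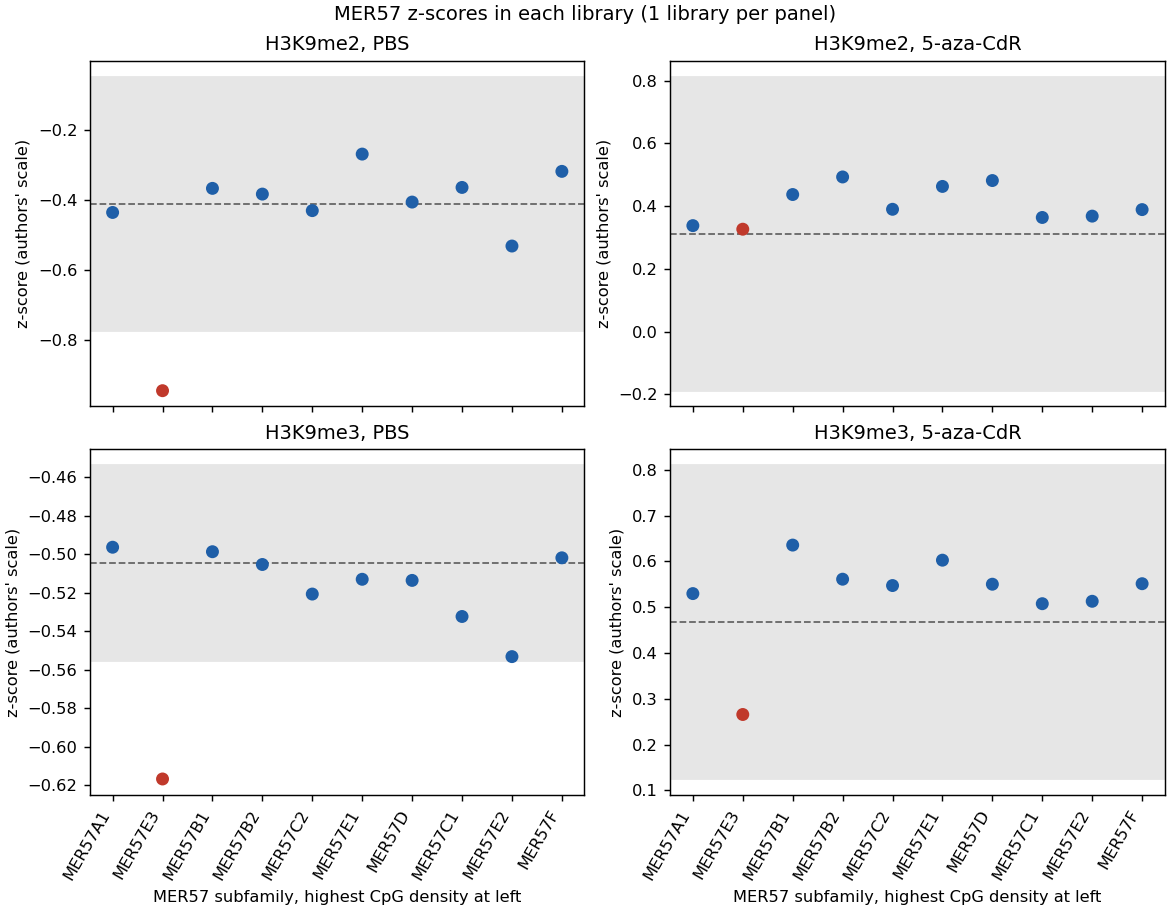
Deposited z-score (vertical axis, scale differs by panel) of the 10 MER57 subfamilies, ordered from the highest CpG density at left, in each of the 4 libraries. Points are single values, red for MER57E3 and blue for the others, the dashed line is the median of all 373 LTR subfamilies and the grey band spans 2 robust SDs on either side. MER57E3 lies below the band in both PBS panels and inside it in both 5-aza-CdR panels, where its H3K9me2 point (0.326) is close to that of MER57A1 (0.338).

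After 5-aza-CdR the place of MER57E3 differed between the marks. For H3K9me2 its z-score was 0.326, next to MER57A1 at 0.338 and close to the median of all LTRs. The other members followed at 0.364 for MER57C1, 0.368 for MER57E2, 0.389 for MER57F, 0.390 for MER57C2, 0.437 for MER57B1, 0.463 for MER57E1, 0.481 for MER57D and 0.493 for MER57B2. MER57E3 was still the lowest of the 10, but by 0.0114 only, and all 10 lay on the upper side of the median of all LTRs. None of the 10 was beyond the limit, which 8.31% of all subfamilies passed on either side.

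For H3K9me3 after 5-aza-CdR, MER57E3 stayed apart from its relatives. Its z-score was 0.266, and the next member, MER57C1, was at 0.508, a step of 0.242 against a range of 0.128 over the other 9. These were 0.513 at MER57E2, 0.530 at MER57A1, 0.547 at MER57C2, 0.550 at MER57D, 0.551 at MER57F, 0.561 at MER57B2, 0.603 at MER57E1 and 0.636 at MER57B1. MER57E3 lay at -1.18 robust SDs from the median of all LTRs, and the other 9 lay above that median. Again 0 of the 10 were beyond the limit, with a background of 6.17%.

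The distance of MER57E3 from the median of the other 9 was thus -0.561 in PBS and -0.0634 in 5-aza-CdR for H3K9me2, and -0.104 and -0.285 for H3K9me3. The H3K9me3 scale was much narrower in PBS than in 5-aza-CdR, with a robust SD of 0.0254 against 0.171 over all subfamilies. In robust SDs of each library, the gap between MER57E3 and its relatives was 3.09 and 0.254 for H3K9me2, and 4.08 and 1.66 for H3K9me3. It was the smaller in 5-aza-CdR for both marks on that scale, and for H3K9me3 it was the larger on the deposited scale.

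The treatment difference, the 5-aza-CdR z-score minus that of PBS, was positive for both marks at all 10 subfamilies. This was not particular to MER57: over the 373 it was positive throughout for H3K9me3, and for H3K9me2 at all but HERV-Fc2_LTR (-0.196). For H3K9me2 the difference was 1.27 at MER57E3, the second highest of the 373 after LTR11 at 1.58. Next were LTR70 at 1.09 and LTR89 at 1.08. The H3K9me3 z-scores of LTR11 were round numbers, -0.3 in PBS and 2 in 5-aza-CdR. The other members lay between 0.707 at MER57F and 0.900 at MER57E2, with a median of 0.804 and an SD of 0.0732 over the 9 subfamilies. The median difference of all LTRs was 0.702 with a limit of 0.25 on either side. MER57E3 was above that limit at 4.55 robust SDs, as were 2.95% of all subfamilies, and the other 9 were within it, between 0.0433 and 1.58 robust SDs above the median. Since MER57E3 was chosen for this contrast, nothing is read from the count of 1 in 10.

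**Figure D2:**
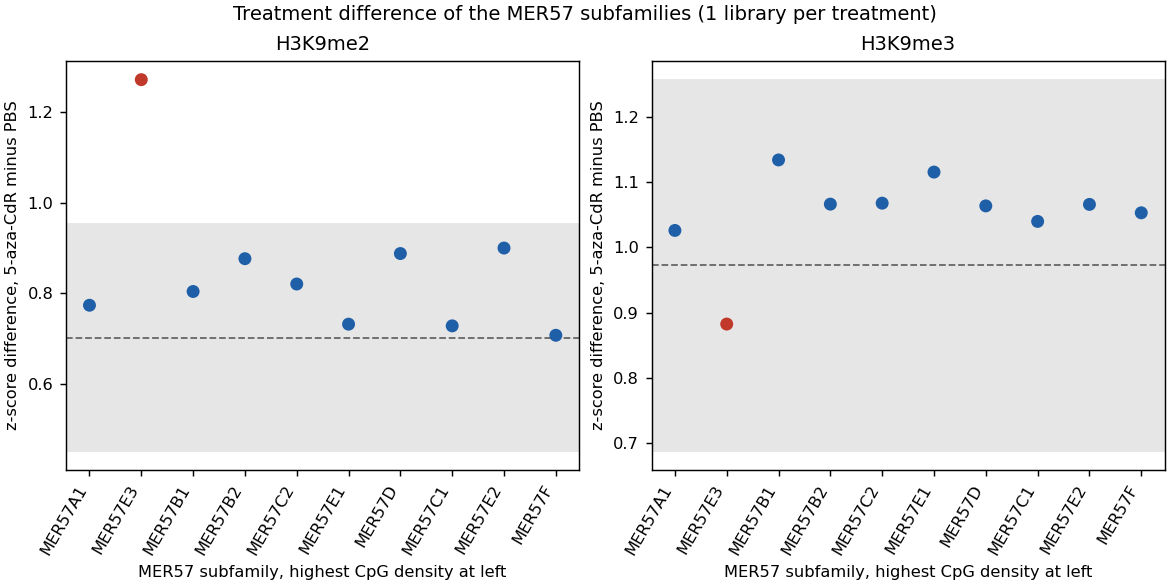
Difference in z-score, 5-aza-CdR minus PBS (vertical axis, scale differs by panel), for the 10 MER57 subfamilies in order of CpG density, with MER57E3 in red, the median of all 373 LTR subfamilies dashed and 2 robust SDs on either side in grey. MER57E3 is the highest of the 10 for H3K9me2 (1.27) and the lowest for H3K9me3 (0.882).

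The remaining 9 subfamilies had H3K9me2 differences of 0.707 at MER57F, 0.728 at MER57C1, 0.732 at MER57E1, 0.774 at MER57A1, 0.804 at MER57B1, 0.820 at MER57C2, 0.876 at MER57B2, 0.888 at MER57D and 0.900 at MER57E2. All of these were above the median of all LTRs on the deposited scale. MER57F, MER57E1 and MER57C1, the nearest to it, did not keep that side: with each library set to mean 0 and SD 1, on percentile ranks and as residuals on the PBS z-score, MER57F and MER57E1 lay below the median of all LTRs, and as residuals on CpG density all 3 did. MER57C1 was at 0, the median itself, on ranks.

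For H3K9me3 the place of MER57E3 in the family was the opposite one. It had the smallest difference, 0.882, below the median of all LTRs (0.973), and the others ranged from 1.03 at MER57A1 to 1.13 at MER57B1, all above it as deposited, although MER57C1, MER57E2 and MER57F lay below it as residuals on CpG density. In between were 1.04 at MER57C1, 1.05 at MER57F, 1.06 at MER57D, 1.07 at MER57E2, MER57B2 and MER57C2 alike, and 1.12 at MER57E1. None of the 10 was beyond the limit of 0.285 on either side, which 9.12% of all subfamilies passed. The side of MER57E3 depended on the scale. It lay at -0.632 robust SDs from the median as deposited, and at 3.29 with SD 1 in each library, a scale that widens the narrow H3K9me3 values of PBS.

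In ranks from the lowest to the highest of the 373, MER57E3 moved from place 4 in PBS to place 196 in 5-aza-CdR for H3K9me2, the largest upward move of any subfamily. For H3K9me3 it moved from place 2 to place 63, the 81st largest. It was chosen for its low PBS z-scores and its H3K9me2 difference, and a low place leaves room mainly upward. Nothing is therefore read from these moves of MER57E3. MER57E2 showed the next largest H3K9me2 move of the family, from place 94 to 218, and the largest H3K9me3 move, from place 26 to 224. MER57E1, MER57C1 and MER57F had lower places in 5-aza-CdR for H3K9me2, with changes of -12, -5 and -23, and higher ones for H3K9me3, with changes of 157, 150 and 67.

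**Figure D3:**
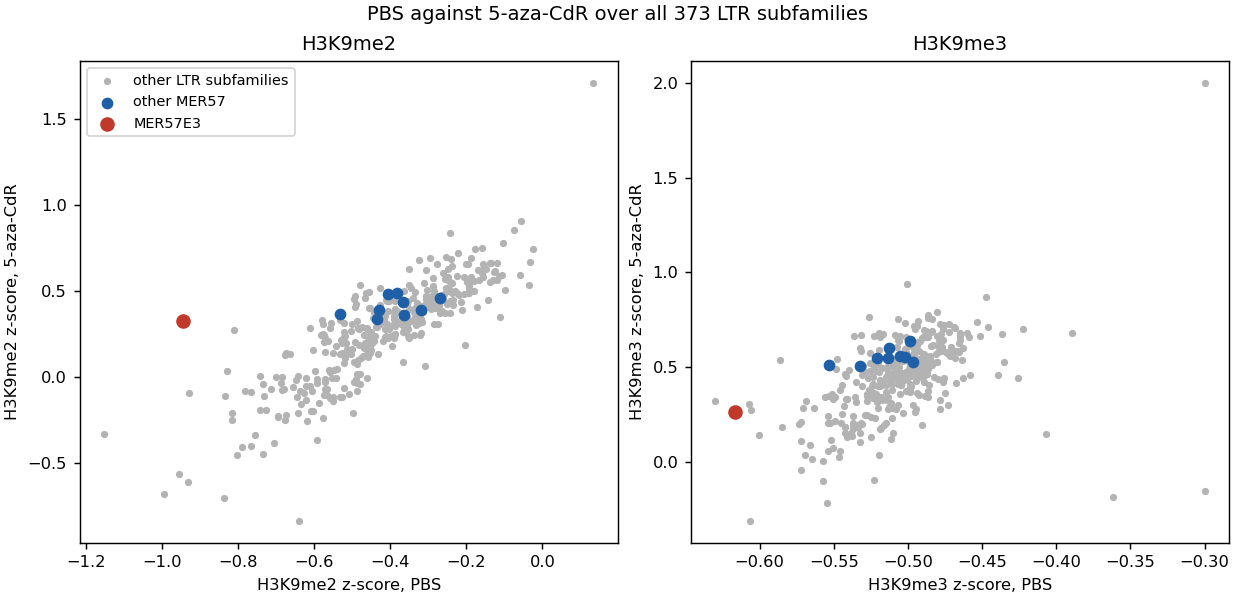
The z-score in 5-aza-CdR (vertical axis) against that in PBS (horizontal axis) for each mark, 1 point per LTR subfamily, with MER57E3 in red, the other 9 MER57 subfamilies in blue and the remaining LTRs in grey. For H3K9me2 MER57E3 (-0.945 in PBS, 0.326 in 5-aza-CdR) lies above and to the left of the main band, and for H3K9me3 (-0.617 and 0.266) it lies at its lower left end.

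The balance of the marks at MER57E3 differed between the treatments. The H3K9me3 z-score minus the H3K9me2 z-score was 0.328 at MER57E3 in PBS, the 6th highest of all LTRs, and between -0.244 (MER57E1) and -0.0214 (MER57E2) at the others. In 5-aza-CdR it was -0.0606 at MER57E3, the 8th lowest of all LTRs, and between 0.0685 (MER57B2) and 0.199 (MER57B1) at the others. MER57E3 did not overlap the other 9 in either treatment, and it was on the upper side of them in PBS and on the lower side in 5-aza-CdR. It was beyond the limit in PBS, on the side that 3.49% of all subfamilies passed, and within it in 5-aza-CdR, where 9.92% passed it on either side. The z-scores of the marks are scaled separately, so the sign of this balance does not say which mark is more abundant. H3K9me3 varied little in PBS, with a robust SD of 0.0254 against 0.182 for H3K9me2. The PBS balance of MER57E3 therefore mostly restates the low H3K9me2 z-score by which it was chosen.

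CpG density, which the selection by name and z-score did not use, did not set MER57E3 apart from its family. CpG sites in methylated repeats mutate over time, so older LTRs tend to hold fewer. The deposited density, a ratio with no stated denominator, was 0.00952 at MER57E3, between 0.0105 at MER57A1 and 0.00922 at MER57B1. The other members were lower, at 0.00676 for MER57B2, 0.00583 for MER57C2, 0.00577 for MER57E1, 0.00543 for MER57D, 0.00526 for MER57C1, 0.00516 for MER57E2 and 0.00439 for MER57F. The 3 denser members lay above the median of all LTRs (0.00734) and the remaining 7 below it. None of the 10 was beyond the limit for CpG density, which 18% of all subfamilies passed.

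MER57A1 and MER57B1, the members nearest in CpG density, had H3K9me2 z-scores in PBS of -0.436 and -0.367, far above the -0.945 of MER57E3. MER57E2, the member nearest to MER57E3 in its z-scores, had the second lowest CpG density of the family. Across the 373 LTRs the z-score was lower where CpG density was higher, with Spearman correlations of -0.74 for H3K9me2 and -0.61 for H3K9me3 in PBS. Over the 9 MER57 subfamilies without MER57E3 they were -0.23 and 0.6, and over all 10 they were -0.42 and 0.27, so the sign of the general trend was not seen for H3K9me3 within the family. Reads that map to several copies can also vary with the age of a repeat. How they were handled is not stated, and their part in these values was not tested.

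A least-squares line of the z-score on log2 CpG density over all 373 LTRs would place MER57E3 at -0.465 for H3K9me2 and -0.513 for H3K9me3 in PBS. The measured values lay below the line, with residuals at -4.03 and -5.38 robust SDs, the third lowest and the second lowest of all. MER57E2 was also below its line by more than the limit for both marks, at -2.08 and -3.41, and MER57C1 for H3K9me3, at -2.27. This made 2 of 10 members below the limit for H3K9me2 and 3 of 10 for H3K9me3, where 3.22% of all subfamilies were, for each mark. MER57E3 was chosen for its low PBS values, so its place in both counts was set by that choice. Among the other 9, 1 was below the limit for H3K9me2 and 2 for H3K9me3. In 5-aza-CdR none of the 10 members was below the limit of the residuals, with backgrounds of 4.29% for H3K9me2 and 2.68% for H3K9me3. The residual of MER57E3 there was at 0.826 robust SDs for H3K9me2 and at -1.08 for H3K9me3.

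**Figure D4:**
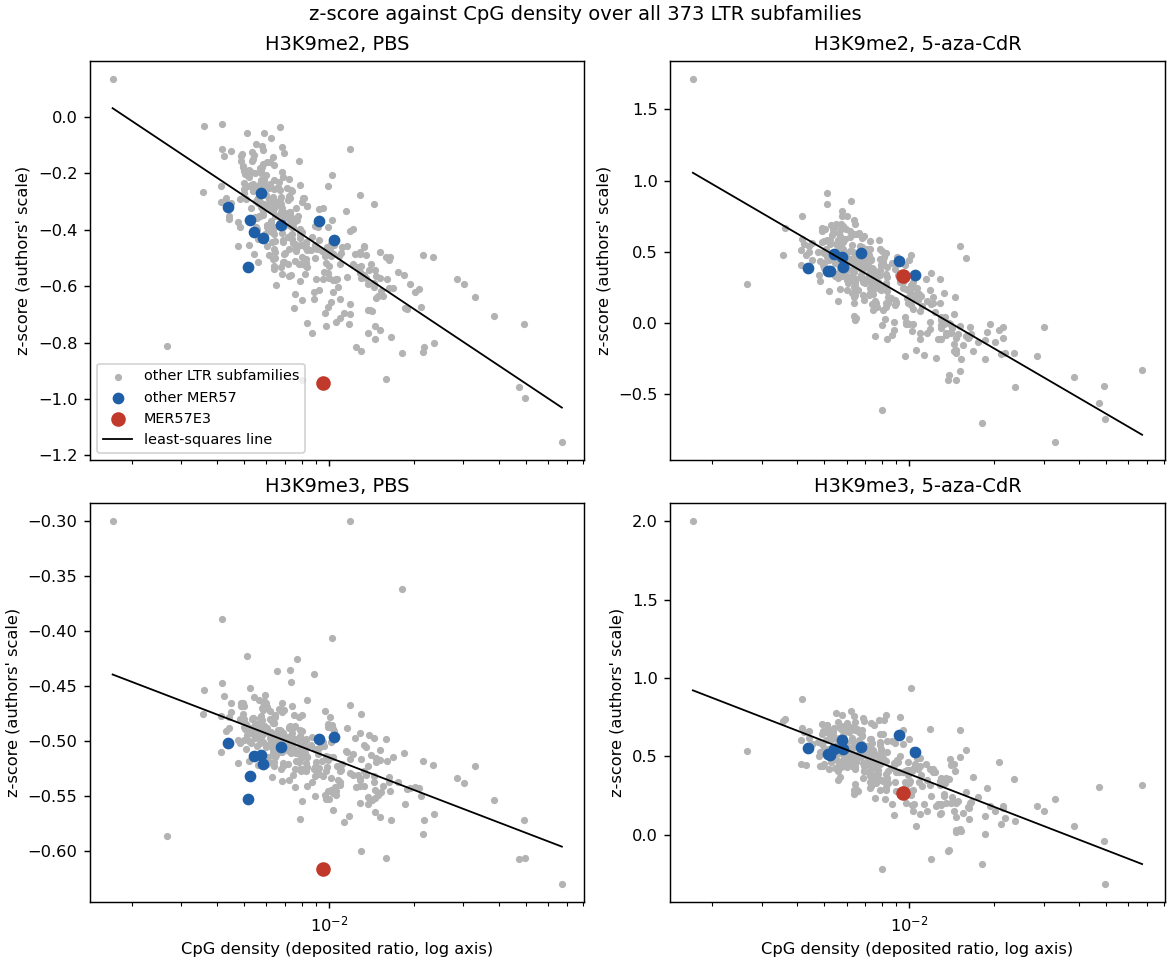
The z-score (vertical axis, scale differs by panel) against CpG density (horizontal log axis) in each library, 1 point per LTR subfamily, with the least-squares line over all 373 in black, MER57E3 in red and the other MER57 subfamilies in blue. In PBS MER57E3 sits under the line for both marks (-0.945 against -0.465 on the line for H3K9me2). Its residuals there are at -4.03 (H3K9me2) and -5.38 (H3K9me3) robust SDs. In 5-aza-CdR they are at 0.826 and -1.08. On the plotted z-score scale its H3K9me3 residual is -0.104 in PBS and -0.138 in 5-aza-CdR.

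Of the 256 other LTRs with a CpG density no higher than that of MER57E3, 0 had a lower z-score in PBS for H3K9me2 and 0 for H3K9me3. The 3 subfamilies below it for H3K9me2, all from HERV-Fc1, were CpG-richer. The LTRs next above it in CpG density were LTR10C, MER87B and PrimLTR79, and those next below it LTR62, MER88 and MER41D. Their H3K9me2 z-scores in PBS were -0.548, -0.576, -0.322, -0.474, -0.437 and -0.612 in that order, all above that of MER57E3. Their H3K9me2 differences were 0.592, 0.888, 0.568, 0.765, 0.728 and 0.897, all below its 1.27. In the 5-aza-CdR library their H3K9me2 z-scores ran from 0.0441 at LTR10C to 0.312 at MER87B, all below the 0.326 of MER57E3. MER57E3 was chosen for its low PBS z-scores and its large H3K9me2 difference. Nothing is therefore read from its place among these LTRs in PBS or in that difference.

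The LTRs most like MER57E3 over the 4 z-scores, by Euclidean distance with mean 0 and SD 1 in each library, came from outside the family. The distance includes the PBS z-scores by which MER57E3 was chosen, so its distance from the family was partly set by that choice. The scaling also widens the narrow H3K9me3 values of PBS. The nearest LTRs were HERV1_LTRa at a distance of 1.39, HERV1_LTRe at 1.47, LTR70 at 1.73, LTR13A at 1.88 and LTR3A at 2.09. The nearest relative, MER57E2, was at 3.09, with 32 LTRs closer, and the other 8 were at 4.09 (MER57C1) to 4.95 (MER57E1). Among themselves the 9 were between 0.271 (MER57B2 and MER57D) and 1.89 (MER57E1 and MER57E2) apart. HERV1_LTRe was close to MER57E3 in 3 of the 4 libraries, at -0.928 for H3K9me2 and -0.606 for H3K9me3 in PBS and at 0.274 for H3K9me3 in 5-aza-CdR, where it was the next subfamily above MER57E3. It differed in H3K9me2 in 5-aza-CdR, at -0.0913 against 0.326. LTR70 was nearer than HERV1_LTRe for H3K9me2 in 5-aza-CdR, at 0.274. It was farther for H3K9me2 in PBS, at -0.811, and for H3K9me3 in 5-aza-CdR, at 0.537 against 0.266. LTR70 had a CpG density of 0.00266, well below that of any MER57 subfamily.

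Among the other MER-named LTRs compared, the H3K9me2 z-scores in PBS stayed within the limit, unlike that of MER57E3. MER41 is another ERV1 family, with a median CpG density of 0.00998, near that of MER57E3 and above the MER57 median of 0.0058. Of its 6 subfamilies, the lowest H3K9me2 z-score was -0.612 at MER41D and the highest -0.450 at MER41E. Of the 94 MER-named LTRs outside MER57, MER41 and MER11, they ran from -0.684 at MER52C to -0.0566 at MER92C. The H3K9me2 difference reached 0.897 at MER41D among MER41 and 0.981 at MER110A among the 94, of which 3 were above the limit and 3 below it (2.95% and 8.04% of all LTRs), with MER61B lowest at 0.415. A set of 77 other MER-named LTRs, taken as ERV1 by name and without MER90a, overlapped both of these sets. Its highest H3K9me2 difference was also that of MER110A, with 3 above and 3 below the limit. The median H3K9me2 difference was 0.812 over the 10 MER57 subfamilies, 0.729 over MER41, 0.690 over the 94 and 0.702 over all LTRs. The median H3K9me3 differences were 1.07, 0.874, 0.955 and 0.973 in the same order.

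The levels of the sets behind those differences were as follows. In PBS the MER57 median was -0.395 for H3K9me2 and -0.513 for H3K9me3, where MER41 had -0.487 and -0.528 and all LTRs -0.412 and -0.504. In 5-aza-CdR the MER57 medians were 0.389 and 0.549, above those of MER41 (0.251 and 0.349) and of all LTRs (0.312 and 0.468). For H3K9me3 in 5-aza-CdR, MER57E3 at 0.266 was near the lowest MER41 subfamily, MER41E at 0.252, and MER41D, the highest of that family, was at 0.504, just under the lowest of the other MER57 subfamilies.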

How the data were processed

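The deposited table gives, per LTR subfamily, the authors' z-score (a standardised score) in each of 4 ChIP-seq libraries and a CpG density, per the file headers. The CpG density is a deposited ratio with no stated denominator. The submitters' processing notes name Bowtie2 and hg19. The sources used here do not state the treatment of multi-mapping reads, the input or the z-score formula. Depth is unknown, and counting error could not be estimated. Columns were assigned to samples by their descriptions. The 10 members, the comparison families and the rules were chosen with earlier results of these data known. Differences are 5-aza-CdR minus PBS. Positions are distances from the median of all 373 subfamilies in robust SDs (median absolute deviation times 1.4826), counted as beyond the limit past 2. The code for that counting was run on simulated normal values, some of them set far past the limit. This checks the code and does not show that the limit suits these data. Lines on log2 CpG density were fitted by least squares over all subfamilies. Named beside the members were the 5 LTRs nearest MER57E3, the 3 on either side of it in CpG density, the 2 on either side of it in an ordered column, and the highest and lowest of each comparison family. Only those the account turns on are printed. Computations used Python 3.11.15, numpy 2.4.6 and pandas 2.3.3. Alternative scales, limits and reference sets were tried.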

Additional observations from a re-analysis of the deposited data

How the results depend on the processing

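The H3K9me2 difference of MER57E3 stayed above the limit under all 7 alternatives. Its H3K9me3 difference, below the median as deposited, lay above it with mean 0 and SD 1 in each library (3.29 robust SDs), on percentile ranks (0.881) and as a residual on the PBS z-score (1.02). The MER57 subfamilies beyond the limit of the treatment difference numbered 2 with SD 1, 4 on ranks and 2 as residuals on PBS for H3K9me2, against 1 as deposited. For H3K9me3 they numbered 2 with SD 1 and 4 on ranks, against 0. The low PBS levels of MER57E3 became -1.33 (H3K9me2) and -1.34 (H3K9me3) robust SDs on ranks, where no value can lie below -1.35. For the counts of differences, residuals on CpG density, limits of 3 robust or 2 ordinary SDs and a reference set of MER-named LTRs changed none. Sets without MER57 or without LTR5 and LTR11, chosen after seeing the data, also changed none of those counts. For the PBS levels, residuals on CpG density put 2 members below the limit for H3K9me2 and 3 for H3K9me3, against 1 for each mark as deposited. LTR5 and LTR11 had round H3K9me3 z-scores, -0.3 in PBS for both and 2 in 5-aza-CdR for LTR11. The mean of the other 9 in place of their median moved no gap by more than their SD. No paired analysis was possible because each group held 1 library. With no depth given, no difference can be set against counting error.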

Other observations

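A low z-score in PBS at a CpG density no higher than that of MER57E3 was uncommon. Of 257 such subfamilies, MER57E3 included, 3 were below the limit for H3K9me2 (MER57E3, LTR25 and LTR70) and 3 for H3K9me3 (MER57E3, LTR75_1 and LTR70). Of all 373, 15 (4.02%) were below it for H3K9me2 and 21 (5.63%) for H3K9me3. Over all LTRs the PBS z-scores were lower at higher CpG density, so nothing is read from the smaller counts here. The group of MER57E3, LTR25, LTR70 and LTR75_1 was formed after its values were seen, and no test was made on it. Its members parted in the 5-aza-CdR libraries. LTR70 had H3K9me2 and H3K9me3 differences of 1.09 and 1.12, and LTR75_1, at a CpG density of 0.00789, had 0.826 and 0.854. LTR25, at a CpG density of 0.00802, had an H3K9me2 z-score of -0.932 under PBS and -0.612 under 5-aza-CdR, a difference of 0.320, and its H3K9me3 difference was 0.340. Both LTR25 differences were below the limit, at -3.06 and -4.44 robust SDs. Over all densities, 12 of the 373 subfamilies were below the limit for both marks in PBS. Of these, 2, MER57E3 and LTR70, were above the limit for the H3K9me2 difference, which 2.95% of all subfamilies passed on that side. MER57E3 was chosen for these values, and the PBS z-score enters the difference, so nothing is read from this overlap.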
